A study of Mus musculus with 12 samples.

Results

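The most abundant m6A peaks of control mouse liver were 563 of the 37118 peaks counted, 1.52% of them. N6-methyladenosine (m6A) is a methyl mark on adenosines of RNA. In MeRIP-seq, fragmented RNA is pulled down with an antibody against the mark and sequenced, and regions where reads pile up are called as peaks. A peak was included when its count, divided by the total count of the sample and multiplied by 1000000 (called plain CPM here), averaged at least 200 over the 3 control samples. The peaks were thus chosen by the control values, which are given as a description, without a test. The samples were livers of C57BL/6 mice, which the labels give as wild-type males. The labels' growth protocol gives the mice as aged 6 to 8 weeks. They were given CdCl2 by gavage at 0 mg/kg/day (control, 3 samples) or 20 mg/kg/day (cadmium, 3 samples) and taken at day 90. Each group had 6 animals per the labels, and how these relate to the 3 samples of a group was not established, so that p-values measure the spread between these samples. Of the 12 libraries, the 6 of immunoprecipitated RNA are described here, and the input libraries were not analysed here.

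Hepatocytes make most plasma proteins and lipoproteins and carry the main pathways of glucose, amino acid, bile acid and drug metabolism, and their RNAs fill a large part of liver RNA. The count of an m6A peak depends on the amount of the RNA and on the share of its copies that carry the mark. Without the input, these could not be told apart here. In whole tissue, fewer cells of a type and less RNA per cell cannot be told apart either. Liver is one of the organs that store cadmium, a poisonous metal, and the question of the comparison was which of the peaks differ in livers exposed to it.

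The genome sequence under the peaks was not used here, but 29 of the 563 peaks reached into the RefSeq start-site window of their own gene (GRCm38.p6, 250 bases before to 50 after the start). Only 269 of the 398 gene symbols of these peaks had such a window, so more peaks may lie at a start site. The 6 sequences below show how differently abundant peaks sit at a start site. They run 5′ to 3′ on the gene's strand and hold 70 bases before the annotated start site and 30 from it on, with the bases inside the peak in capitals. Whether peak starts count from 0 is not stated, so an edge may be off by 1 base. Cadps2 is shown for a short peak that lies across the start, Inmt and Hexim1 for peaks that were lower in cadmium samples, and Apob, Cyp3a11 and Fabp1 as classical hepatocyte genes.
Cadps2: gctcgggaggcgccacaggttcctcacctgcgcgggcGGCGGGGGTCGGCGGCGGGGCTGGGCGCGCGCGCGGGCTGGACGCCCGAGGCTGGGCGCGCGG
Inmt: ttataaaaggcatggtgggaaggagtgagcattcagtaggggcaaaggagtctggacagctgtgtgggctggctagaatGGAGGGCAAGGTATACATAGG
Hexim1: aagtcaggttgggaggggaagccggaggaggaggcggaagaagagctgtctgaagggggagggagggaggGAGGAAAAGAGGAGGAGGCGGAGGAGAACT
Apob: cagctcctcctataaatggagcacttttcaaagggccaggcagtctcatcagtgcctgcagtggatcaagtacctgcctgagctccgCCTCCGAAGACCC
Cyp3a11: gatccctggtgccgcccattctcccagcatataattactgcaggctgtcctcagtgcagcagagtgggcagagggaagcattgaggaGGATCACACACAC
Fabp1: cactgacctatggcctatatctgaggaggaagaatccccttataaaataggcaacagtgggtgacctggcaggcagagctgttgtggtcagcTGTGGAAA
The windows lie at chr6:23839392-23839491, minus strand (Cadps2), chr6:55174961-55175060, minus strand (Inmt), chr11:103116255-103116354, plus strand (Hexim1), chr12:7977607-7977706, plus strand (Apob), chr5:145879825-145879924, minus strand (Cyp3a11) and chr6:71199809-71199908, plus strand (Fabp1). The Cadps2 peak of 121 bp covered 33 bases before the start and 50 after it in the full window. The other 5 peaks began at or after the start and covered 28 to 50 bases of the window. TATAAA, the letters of the TATA box, began 69 bases before the annotated start in Inmt, 60 in Apob and 30 in Fabp1. Read on both strands in the windows of 300 bases, TATAAA was found in 16.8% of the 346 windows of genes with an abundant peak and in 13.6% of all 32851 windows. CCAAT was found in 43.4% of the windows of these genes and in 37.4% of all windows. These shares describe letters in the windows and say nothing of binding.

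Each sample had 40174736 to 52338612 counts in peaks. The abundant peaks took 43.7%, 34.2% and 41.9% of the counts in control replicates 1, 2 and 3 and 38.1%, 35.8% and 44.8% in cadmium replicates 1, 2 and 3. The range came mainly from 2 peaks, described next: with those 2 left out of both sums, the share was 30.8% to 31.8% in control and 29.96% to 31.3% in cadmium samples. Levels below are CPM after TMM scaling, a scaling to a common library size, unless they are named as control means of the selection, which are in plain CPM. Of 22 hepatocyte marker genes, 20 had an abundant peak, while none of the markers of macrophages, endothelium, stellate cells, bile duct or blood cells had one.

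The X-linked Xist peak (chrX:103481559-103483191), shared with Tsix and Gm26992, was among the abundant peaks although the labels give all animals as male, and it is named here because its presence was noticed in the values. Xist RNA coats the inactive X chromosome of female cells. The peak had 249.6, 334 and 298 CPM in control and 414, 398 and 373 CPM in cadmium samples. It was present in all 6 samples (log2 change 0.43 ± 0.15 SE, adjusted p = 0.116). No peak was annotated to any of 4 Y-linked genes searched afterwards, Ddx3y, Eif2s3y, Kdm5d and Uty. Both groups were alike in this. At 11 other abundant peaks, described last, replicate 2 stood low in both groups, and replicate numbers are batches per the labels. How the samples relate to the labelled sex was not tested.

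**Figure D1:**
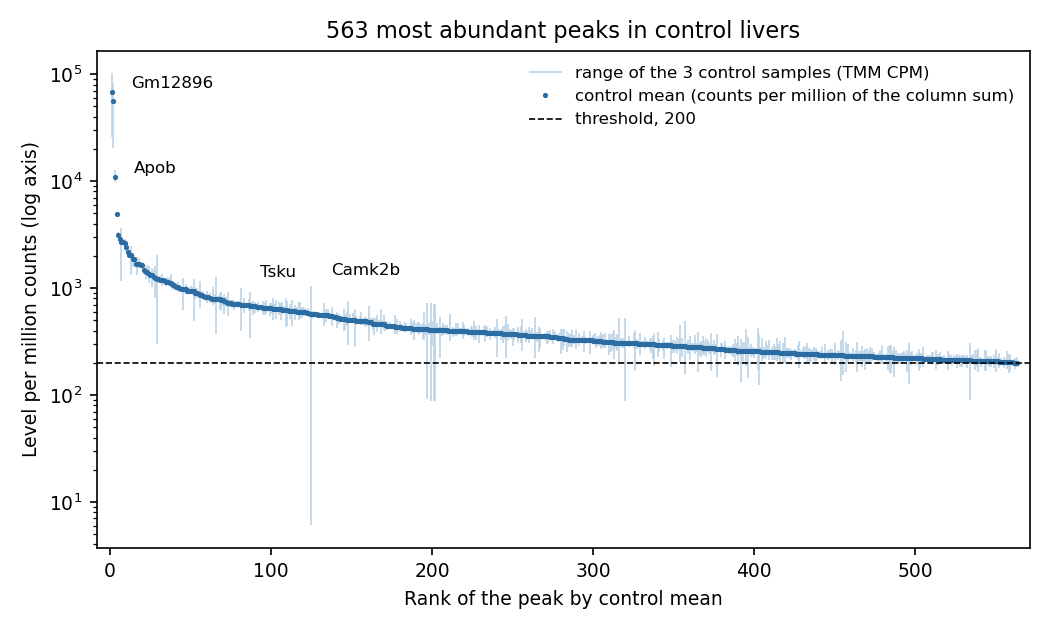
Level of the 563 peaks (vertical log axis, CPM) against their rank by control mean (horizontal axis). Dots are the control means that chose the peaks (plain CPM), vertical lines span the 3 control samples after TMM scaling, and the dashed line is the threshold of 200. After Gm12896, Gm12895 and Apob the means fall slowly to the threshold, and Camk2b has the widest range.

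The levels were steeply unequal. The median control mean of the selection was 337 plain CPM, against 7.37 over all peaks, and 42 of the 563 peaks reached 1000. The predicted genes Gm12896 (chr4:122122841-122122984) and Gm12895 (chr4:122455252-122455386) led, with 67637 and 55885 plain CPM in peaks of only 143 and 134 bp. Their levels varied widely: Gm12896 had 101816, 25606 and 84135 CPM in control replicates 1, 2 and 3 and 53112, 42210.3 and 116394 CPM in cadmium replicates 1, 2 and 3. The cadmium and control values of Gm12896 overlapped, and both groups were lowest in replicate 2. The third was Apob, the structural protein of very low density lipoprotein, at 10827 plain CPM in the widest of the 563 peaks (chr12:8005740-8013202, 7462 bp).

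The next ranks went to secreted proteins of the hepatocyte. The control means of the selection, in plain CPM and not divided by width, were 4914 for Apoe, a ligand for lipoprotein uptake, 3137 for the fibrinogen alpha chain Fga, 2860.5 for Apoa5 and 2668 for Apoa1, the main protein of high density lipoprotein. Serpina1a and Serpina1b, copies of the alpha-1-antitrypsin gene, had 2614 and 2183. A peak with no gene on chromosome 18 (2706) and a peak annotated to Gm28437 and Gm10925 on chromosome 1 (2395) also ranked among the first. Near-identical copies such as the Serpina1 genes may share reads, so that their separate levels are uncertain.

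The selection used counts without dividing by width, and the abundant peaks were wider, with a median of 419 bp (101 to 7462 bp) against 229 bp over all peaks. Of the 563, 127 were at least 1000 bp wide and 43 were under 150 bp. Per 100 bp of peak, the median of the control means after TMM scaling was 88.3 CPM against 2.92 over all peaks. The values per 100 bp that follow are in the plain CPM of the selection. Only 362 of the 563 would be among the 563 densest peaks. Per 100 bp the Apob peak fell to 145, while a peak of Alb (albumin, the main plasma protein; chr5:90474496-90474602, 106 bp) had 1141, Apoe had 610.4 and Serpina1a had 479.5. Very short peaks stood highest on this scale: Gm12896, Gm12895 and the peaks with no gene on chromosomes 18 and 10.

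The 563 peaks carried 398 gene symbols. One symbol was given for 450 peaks, more than 1 for 99 and none for 14. Where symbols share a peak and the strand is unknown, the reads of the genes cannot be told apart. RefSeq's gene list held 354 of the symbols, of which 331 were protein-coding and 13 long noncoding. Of the symbols, 270 had a single abundant peak and 66 had at least 3. Serpina1b had the most, 11 of its 13 peaks, but the 5 abundant peaks of Serpina1d are shared with it and are among these 11. C3, the central complement protein, had 10 of 12. Ass1 of the urea cycle and the fibrinogen beta chain Fgb had 7 each of 8, and Alb had 6 of 6. Of the 16 peaks on the mitochondrial chromosome 13 were abundant, with 0.551% to 0.965% of each sample's counts. The X chromosome held 5 of 881 peaks and the Y chromosome 0 of 17.

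Most abundant peaks were measured closely in the control samples, and a few were not. The coefficient of variation over the 3 control samples had a median of 11.6%, against 10.2% over the cadmium samples. It ranged from 0.391% to 93.7% and was above 50% for 16 peaks. The widest spread was that of Camk2b, a subunit of a calcium-dependent kinase (chr11:6008311-6011329), with 6.05, 1042 and 619.8 CPM in control replicates 1, 2 and 3 and 247, 400.1 and 244 CPM in cadmium replicates 1, 2 and 3. Control replicate 1 was far below the other 5 samples there. The 3 peaks just inside the threshold were Pfn1 (200.5 plain CPM), Car3 (201.1) and a peak shared by Tcp1 and Acat3 (201.2), and those just outside were Klf9 (199.7), Pzp (199.6) and Pigr (199.3). In all 3 control samples, 454 of the 563 peaks reached 200.

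By role, many abundant peaks belonged to genes of secreted proteins. Of 27 plasma carrier and hormone genes with any peak, 19 had an abundant one (48 peaks). Control means of the selection for their highest peaks were 1888 for Hp, the haemoglobin scavenger haptoglobin, 1687 for Alb, 1125 for the selenium carrier Selenop and 877 for the thyroid hormone carrier Ttr. Of 21 apolipoprotein and lipoprotein assembly genes 12 had one (26 peaks), and of 23 protease inhibitors 14 (39 peaks). Of 19 coagulation genes 9 had one (27 peaks). Of 22 complement genes with a peak, C3 and C1s1 had an abundant one. Of 16 major urinary protein genes with a peak, Mup3, Mup13 and Mup14 had an abundant one. These genes are near-identical and may share reads.

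Metabolic genes also held abundant peaks. Abundant peaks were found for 11 of 44 cytochrome P450 and reductase genes (27 peaks), among them Cyp1a2 (1281) and Cyp2e1 (1059), which oxidise drugs and small solvents. They were found for 15 of 52 conjugation genes (31 peaks), 12 of 53 amino acid and urea genes (32 peaks), 9 of 31 glucose genes (16 peaks) and 11 of 38 fatty acid oxidation genes (18 peaks). Examples, with the control mean of the selection for a single peak and not divided by width, are Ugt1a1, the bilirubin-conjugating enzyme (668), Bhmt, which remethylates homocysteine (929), and Pck1, which commits carbon to glucose synthesis (1409). Only 5 of 31 lipogenic and 2 of 21 cholesterol synthesis genes had one. Among 29 liver transcription factors 7 had one, among them Cebpa, a master regulator of hepatocyte genes, at 1625 (in a peak shared with Gm45091). None of 15 genes of the m6A machinery with a peak had an abundant one, and the largest value among them was 151 plain CPM for a peak of Ythdf3, a reader of the mark.

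In the cadmium samples the set was largely the same: 487 of the 563 peaks also averaged at least 200 plain CPM there, as did 70 other peaks. The 70 were led by the metal-binding metallothioneins, named after their values were seen. Mt1 had 37.0, 56.3 and 100.3 CPM in control replicates 1, 2 and 3 and 487, 763 and 708 CPM in cadmium replicates 1, 2 and 3, and the peak of Mt2, shared with Gm45774, had 21.6, 21.4 and 53.8 CPM in control and 524, 606 and 699 CPM in cadmium samples. No cadmium value of either overlapped the controls, which follows in part from picking both by these same values. Of the 563, 494 had a log2 change under 0.5 in size. The median log2 change of cadmium relative to control was -0.05 for the 563 and -0.0031 for all tested peaks, with interquartile ranges of -0.26 to 0.07 and -0.22 to 0.24. The change was below 0 for 347 of the 563 (61.6%) and for 50.5% of all tested peaks.

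All 563 peaks passed the filter on low counts and were among the 37088 tested. With edgeR's quasi-likelihood test, 40 of the 563 were called at an adjusted p below 0.05, 7.10% of them, against a background of 6.27% of all tested peaks. Lower in cadmium samples were 35 (6.22%, background 2.72%) and higher were 5 (0.888%, background 3.55%). The counts by direction changed with the samples that chose the peaks. With the same threshold on the mean over all 6 samples, 22 of 562 peaks were lower and 11 higher. With it on the mean over the 3 cadmium samples, 9 of 557 were lower and 21 higher. The background shares are the same in each case, and the cause of the lean towards lower values was not tested. Both groups' values did not overlap at 141 of the 563 peaks (25.04%, background 26.8%), among them all 40 that were called. At least a 2-fold difference was seen at 12 of the lower peaks (background of lower calls of that size, 1.27%) and 1 of the higher (background 1.86%). The authors' deposited table calls 17 of the 563 lower (background 1.58%) and 1 higher (background 2.66%). Over all peaks, its calls had log2 changes of at least 1.00024 in size and adjusted p of up to 0.232. They are thus not of the same kind as the edgeR calls.

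Several calls rested on single libraries. Without cadmium replicate 3, 14 of the 563 peaks were lower and 0 higher, and without control replicate 3, 20 were lower and 2 higher. Over all tested peaks the same fits called 543 and 1078, against 2325 with every sample. When each of the 6 samples was left out in turn, 12 of the 40 calls were kept every time, all of them lower: Tsku, Acot3, Por, both peaks of Tat, the 3 of Cyp2a5, Hspa8, Klf13, and 1 each of Chd9 and Inmt. None of the 40 changed direction. Summed levels of macrophage and Kupffer markers were 256 to 376 CPM in control and 436 to 556 CPM in cadmium samples (11 of 15 genes with a peak, none for Timd4, Adgre1, Cd68 and Itgam). Those of stellate and fibroblast markers were 190 to 242 CPM and 277 to 308 CPM (11 of 12 genes with a peak, none for Acta2), and those of hepatocyte markers 61869 to 66872 CPM and 58672 to 66014 CPM (22 of 22). The ranges of endothelial markers (398 to 539 and 417 to 575 CPM), bile duct markers (109 to 149 and 122 to 347 CPM) and blood cell markers (93.8 to 165 and 85.8 to 289 CPM) overlapped between the groups. Their part in the differences below was not tested.

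**Figure D2:**
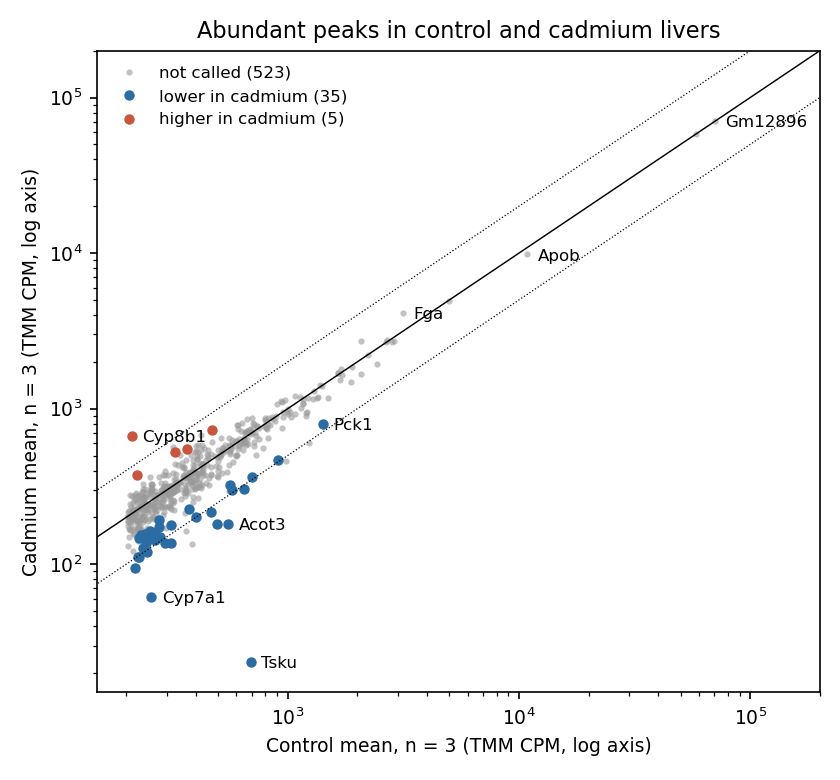
Cadmium mean against control mean of the 563 peaks (TMM CPM, n = 3 each, both axes log). The solid line marks equal levels and the dotted lines 2-fold differences; 35 peaks called lower (blue) include Tsku and Cyp7a1 far below the line, and 5 called higher (red) include Cyp8b1.

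Tsku had the largest difference. It encodes tsukushi, a small secreted proteoglycan that the liver releases into plasma. Its peak (chr7:98350677-98353075) had 397, 1004 and 673 CPM in control replicates 1, 2 and 3 and 17.4, 42.6 and 10.5 CPM in cadmium replicates 1, 2 and 3. The highest cadmium value was far below the lowest control value. Its mean was 29.3-fold lower in the cadmium samples (log2 change -4.87 ± 0.52 SE, adjusted p = 0.0012). The highest adjusted p over the 6 leave-outs was 0.00883.

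Bile acid synthesis showed changes in both directions. Cyp7a1, the rate-limiting enzyme of the classical pathway (chr4:6272280-6272973), had 124, 284 and 362 CPM in control and 38.8, 84.8 and 61.0 CPM in cadmium samples. All cadmium values were below all control values (log2 change -2.06 ± 0.37 SE, adjusted p = 0.0111). Cyp8b1, which directs the pathway towards cholic acid (chr9:121914371-121916258), had 89.6, 235 and 309 CPM in control and 633, 724 and 649.8 CPM in cadmium samples. Every cadmium value was above every control value (log2 change 1.66 ± 0.34 SE, adjusted p = 0.0197), and the control values themselves spread widely. Control replicate 1 was the lowest control sample for both. Without cadmium replicate 3 neither was called, with adjusted p of 0.0545 for Cyp7a1 and 0.0643 for Cyp8b1. The other 4 genes of the list with an abundant peak were not called, and the transporter Slc10a1, which takes up bile acids from blood, had a log2 change of -0.23 (adjusted p = 0.392).

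Drug-metabolising enzymes were lower in part. The list of cytochrome P450 genes and their reductase leaves out Cyp7a1 and Cyp8b1, which stand in the bile acid list. Of its 27 abundant peaks, 4 were lower (all 563 abundant peaks 6.22%, background 2.72%) and 0 higher (0.888%, background 3.55%). The change was below 0 for 24 of the 27, and for 61.6% of the 563. The median log2 change of the list was -0.34, against -0.05 for the 563 and -0.0031 for all tested peaks. Like all of the 563, these peaks were chosen by control values, which bears on such counts. Por, the reductase that passes electrons to all microsomal P450 enzymes (chr5:135734818-135735298), had 219, 215 and 220.0 CPM in control and 72.1, 112 and 100.1 CPM in cadmium samples. The control values of Por were within a narrow band, and the groups lay far apart (log2 change -1.20 ± 0.17 SE, adjusted p = 0.00407). Cyp2a5, a coumarin hydroxylase, was lower at all 3 of its peaks, and the highest of these (chr7:26842848-26843203) had 444, 497 and 457 CPM in control and 191, 251 and 212 CPM in cadmium samples. Its groups did not overlap (log2 change -1.10 ± 0.15 SE, adjusted p = 0.00284), and the other 2 peaks changed by -1.10 and -1.01. Calls were absent at the highest peaks of Cyp1a2, Cyp2e1 and Cyp3a11: that of Cyp1a2 had a log2 change of -0.01, that of Cyp2e1 of -0.21 and that of Cyp3a11 of -0.41 (adjusted p = 0.97, 0.424 and 0.153).

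Of 31 abundant peaks of conjugation genes, 5 were lower and 0 higher (all 563 abundant peaks 6.22% and 0.888%, background 2.72% and 3.55%). The median log2 change of the list was -0.21, against -0.05 for the 563. Inmt, which methylates small amines, gave 3 of these 5. Its highest peak (chr6:55170664-55171313) had 567, 569 and 557 CPM in control and 266, 364 and 346 CPM in cadmium samples. No value of one group reached the other (log2 change -0.79 ± 0.15 SE, adjusted p = 0.0136). The middle peak changed by -0.80, and the peak that begins just after the start site printed above changed by -0.66 (adjusted p = 0.0217). Gstp1, a glutathione transferase, changed by -0.68 (adjusted p = 0.0187), and Ugt2b34, a glucuronosyltransferase, by -0.71 (adjusted p = 0.0225). The call of the highest Inmt peak was lost without cadmium replicate 3 (adjusted p = 0.0588). Those of its start-site peak, Gstp1 and Ugt2b34 were lost without cadmium replicate 2 or 3 (adjusted p up to 0.112, 0.0892 and 0.127). They were also lost without control replicate 1 or 3 for the start-site peak, control replicate 3 for Gstp1 and control replicate 2 for Ugt2b34.

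Among 16 abundant peaks of glucose genes 3 were lower (all 563 abundant peaks 6.22%, background 2.72%) and 0 higher (0.888%, background 3.55%). All 3 were of Pck1, the enzyme that commits carbon to gluconeogenesis, and the median of the list was -0.37. The highest Pck1 peak (chr2:173158201-173159223) had 1538, 1504 and 1223 CPM in control and 594, 999 and 807 CPM in cadmium samples. The largest cadmium value stayed under the smallest control value (log2 change -0.83 ± 0.19 SE, adjusted p = 0.0295), but the call was kept in only 1 of 6 leave-outs, the one without cadmium replicate 2, with adjusted p up to 0.108. The other Pck1 peaks changed by -0.997 and -0.91, and both lost their call without cadmium replicate 3, the second also without control replicate 1 or 3 or cadmium replicate 1 (adjusted p up to 0.0606 and 0.0887).

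Of 32 abundant peaks of amino acid and urea genes (median -0.21) 4 were lower and 0 higher (all 563 abundant peaks 6.22% and 0.888%, background 2.72% and 3.55%). Tat, which starts tyrosine breakdown, gave 2 of them, and the larger (chr8:109999174-109999712) had 252, 372 and 313 CPM in control and 129, 169 and 112 CPM in cadmium samples. The groups were well apart (log2 change -1.20 ± 0.19 SE, adjusted p = 0.00725), and the second Tat peak changed by -1.03 (adjusted p = 0.00505). Asl of the urea cycle changed by -0.59 at 1 peak (adjusted p = 0.0472). Mat1a, which makes S-adenosylmethionine, the methyl donor, changed by -0.53 at 1 peak (adjusted p = 0.0487). Both calls were near the threshold. That of Asl was kept without control replicate 1 or 2 and that of Mat1a without control replicate 1 alone. Neither was kept in another leave-out, with adjusted p up to 0.161 and 0.197. The other abundant peaks of Asl (-0.53) and Mat1a (-0.30, its higher peak) were not called (adjusted p = 0.0584 and 0.265). Ass1, with 7 abundant peaks, had log2 changes of -0.27 to -0.11, none called.

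Among lipid genes, Acot3 and Thrsp were lower. Acot3, a peroxisomal acyl-CoA thioesterase whose peak is shared with Gm49366 (chr12:84058401-84060072), had 443, 728 and 489 CPM in control and 149, 216 and 181 CPM in cadmium samples. The 2 groups were separated by a wide gap (log2 change -1.61 ± 0.21 SE, adjusted p = 0.00268). It was the 1 called peak of 18 in fatty acid oxidation (background of calls in either direction, 6.27%). Thrsp, a nuclear regulator of lipogenic enzymes (chr7:97412979-97413562), had 498, 318 and 673 CPM in control and 298, 103 and 141 CPM in cadmium samples. The groups were separated by a small margin (log2 change -1.46 ± 0.37 SE, adjusted p = 0.0428), and the call was lost without control replicate 1 or 3 or cadmium replicate 2 or 3 (adjusted p up to 0.165). The second Thrsp peak had a log2 change of -1.52 (adjusted p = 0.0527). Scd1, which desaturates fatty acids, went the other way in its values without being called: 593, 325 and 345 CPM in control and 1058, 245 and 726 CPM in cadmium samples. The cadmium values spread over the whole control range (log2 change 0.68 ± 0.42 SE, adjusted p = 0.38). Without cadmium replicate 2, the lowest of them, the Scd1 peak was called (log2 change 1.080, adjusted p = 0.0484).

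Some peaks of regulators and chaperones were lower too. Of 9 abundant peaks of heat shock and chaperone genes 2 were lower and 0 higher. Among 8 abundant peaks of liver transcription factors 1 was lower and 0 higher (background 2.72% lower and 3.55% higher). Chd9 and Klf13 stand in neither list and are given because they were called. Cebpb, a transcription factor of the acute phase and of gluconeogenesis, shares its peak with Tmem189 (chr2:167688989-167690366) and had 505, 626 and 814 CPM in control and 227, 359.9 and 329 CPM in cadmium samples. No cadmium value reached the controls (log2 change -1.09 ± 0.21 SE, adjusted p = 0.0161), and the call was lost without control replicate 3 or cadmium replicate 3 (adjusted p up to 0.0633). Chd9, a chromatin remodeller, was lower at both of its called peaks (-1.04 and -0.96), and the second of these calls was lost without control replicate 3 (adjusted p = 0.0617). Klf13, a zinc-finger transcription factor, had 271, 286 and 241 CPM in control and 136, 151 and 143 CPM in cadmium samples. Its groups were tight and apart (log2 change -0.89 ± 0.14 SE, adjusted p = 0.00544). The peak of the heat shock cognate chaperone Hspa8, which cells make at all times, overlaps a small nucleolar RNA (Snord14e) and had 566, 560.2 and 596 CPM in control and 269, 326 and 300.2 CPM in cadmium samples. The cadmium values were close to one another and all lower (log2 change -0.95 ± 0.13 SE, adjusted p = 0.00374). Herpud1, which serves the disposal of misfolded proteins of the endoplasmic reticulum, changed by -0.84 (adjusted p = 0.00745), and lost its call when cadmium replicate 3 was left out (adjusted p = 0.0567). The chaperones Calr, Hsp90ab1 and Hspa5 had log2 changes of -0.06, -0.29 and -0.50 and were not called.

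Further lower peaks belonged to genes of other roles or to no gene. Arid5b, a chromatin-binding regulator, changed by -0.91 and a peak with no gene on chromosome 4 by -0.95. Ptp4a1, a tyrosine phosphatase, the scaffold protein gene Slc9a3r1 and Aldh3a2, a fatty aldehyde dehydrogenase, changed by -0.77, -0.75 and -0.75. Ppp1r15b, a subunit of the phosphatase that reverses the stress mark on the initiation factor eIF2, changed by -0.73 in a peak shared with Gm26616. Hexim1, an inhibitor of transcription elongation whose window is printed above, and a mitochondrial peak with no gene changed by -0.62 and -0.64. Adjusted p-values of these 8 peaks were 0.0104 to 0.0462. Without cadmium replicate 3 all of them lost their call except the peak on chromosome 4, which lost it without control replicate 3. The highest adjusted p of the 8 peaks over the leave-outs was 0.21. All 13 abundant mitochondrial peaks had a change below 0 (-0.64 to -0.19), against 61.6% of all abundant peaks and 50.5% of all tested peaks. Of the 13, 1 was called (background of calls in either direction, 6.27%). Whether these peaks of a single chromosome vary independently of one another was not tested.

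**Figure D3:**
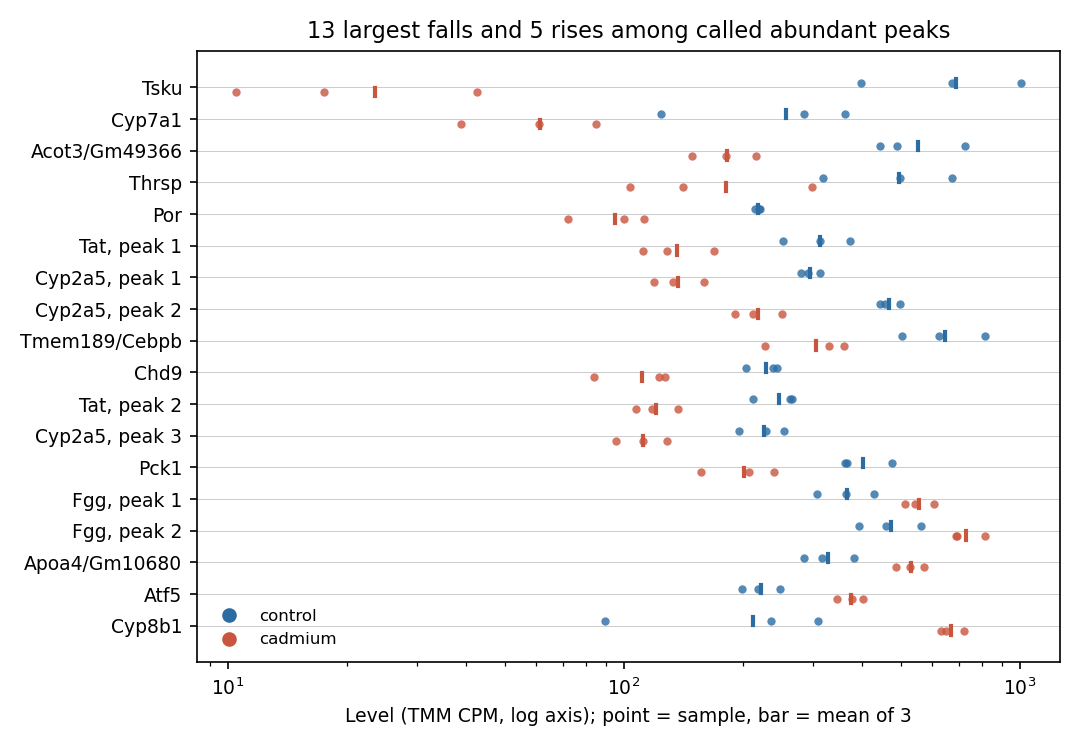
Level in each sample (TMM CPM, horizontal log axis) for the 13 called peaks with the largest falls and the 5 called higher, control in blue and cadmium in red, with bars at the mean of 3. In each row the 3 control and 3 cadmium points do not overlap; Tsku lies furthest apart and Thrsp comes closest to touching.

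Besides Cyp8b1, the higher peaks were those of Atf5, Apoa4 and Fgg. Atf5, a stress-responsive transcription factor (chr7:44812283-44813525), had 199, 219 and 249 CPM in control and 344, 402 and 377 CPM in cadmium samples. Every cadmium sample was above every control sample (log2 change 0.75 ± 0.14 SE, adjusted p = 0.0138), and the call was lost without cadmium replicate 3 (adjusted p = 0.0729). Apoa4, an apolipoprotein of chylomicrons and of plasma, shares its peak with Gm10680 and had 316, 380.1 and 285 CPM in control and 528, 488 and 574 CPM in cadmium samples. The groups did not overlap (log2 change 0.70 ± 0.15 SE, adjusted p = 0.023), and the call was lost without control replicate 1 or 3 or cadmium replicate 3 (adjusted p up to 0.118). It was the 1 called peak of 26 in the apolipoprotein list (background of calls in either direction, 6.27%), whose median was -0.09.

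The 3 fibrinogen genes lie side by side on chromosome 3 and had log2 changes above 0 at all their abundant peaks, of which 2 passed the test. Fgg, the gamma chain, had 6 abundant peaks with log2 changes of 0.35 to 0.63, of which 2 were called. The larger of these changes (chr3:83012710-83013104) came with 564, 392 and 459.9 CPM in control and 692, 689 and 816 CPM in cadmium samples. All cadmium values were above all control values (log2 change 0.63 ± 0.16 SE, adjusted p = 0.043). Each call of Fgg was kept in 1 of 6 leave-outs only, the one without control replicate 1 (adjusted p up to 0.188 and 0.199). The 7 peaks of Fgb had log2 changes of 0.29 to 0.39 and the 5 of Fga of 0.30 to 0.42, none called. For the highest Fga peak the values were 3110.3, 3335 and 3050.1 CPM in control and 4179, 3779 and 4419 CPM in cadmium samples. These groups did not overlap either (log2 change 0.38 ± 0.12 SE, adjusted p = 0.099). Of all 27 abundant coagulation peaks 2 were higher and 0 lower (background 3.55% and 2.72%). A change below 0 was seen at 1 of them, against 61.6% of all abundant peaks and 50.5% of all tested peaks. The median of this list was 0.35, but most of its peaks are the fibrinogen peaks given above. Its other genes had log2 changes of 0.06 to 0.19 (F10, Plg, Proc, Proz and Vtn) and -0.17 (F5). Of 31 acute phase peaks, which include the same fibrinogen peaks, 2 were higher and 0 lower (background 3.55% and 2.72%, median 0.31). In both lists the 2 called peaks are those of Fgg. Hp (-0.04) and Crp (-0.02) were not called.

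**Figure D4:**
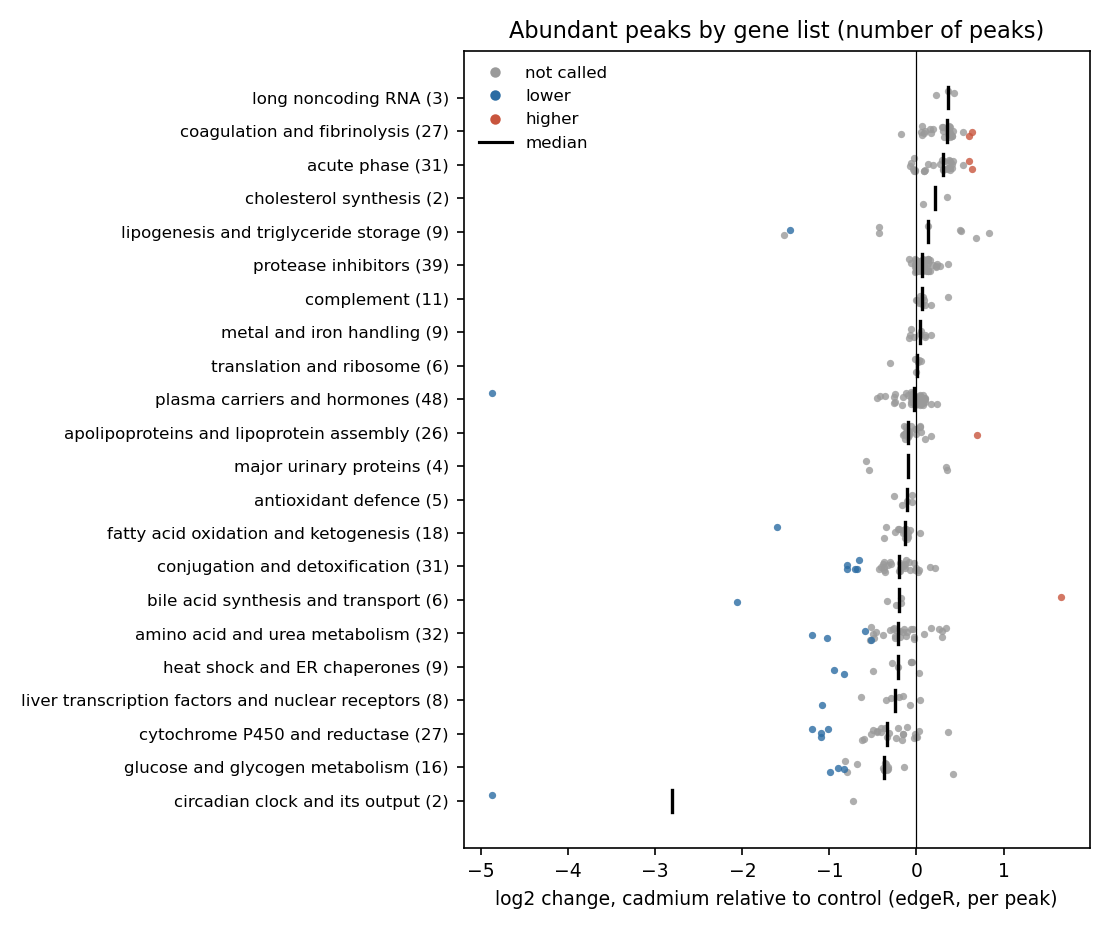
Log2 change of cadmium relative to control (horizontal axis) for the abundant peaks of each gene list, with the number of peaks in brackets, black bars at the median and called peaks in blue (lower) or red (higher). Medians run from -0.37 in glucose metabolism to 0.36 in long noncoding RNA, apart from the 2 peaks of the circadian list, and lists share genes.

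For many of the most abundant secreted proteins no difference was called. None of 39 protease inhibitor peaks (median 0.06), 11 complement peaks (median 0.06) and 9 metal and iron peaks (median 0.04) was called. Nor was any of 5 antioxidant peaks (median -0.11) and 6 translation peaks (median 0.01). With 6.27% of all tested peaks called, lists this short may hold no call. The 11 abundant peaks of Serpina1b, 5 of them shared with Serpina1d, had log2 changes of -0.02 to 0.10. The 10 of C3 had changes of -0.01 to 0.16 and the 6 of Alb of -0.16 to -0.05. The highest peaks of the iron store genes Fth1 and Ftl1 had log2 changes of 0.04 and -0.08, and the iron-regulating hormone Hamp -0.08 (peaks of Ftl1 and Hamp are shared with Gm22133 and Gm44662). Of 48 plasma carrier peaks 1 was called, that of Tsku (background of calls in either direction, 6.27%). Apoe had 5097, 4679.8 and 5175 CPM in control and 4959, 4567 and 5284 CPM in cadmium samples. The values were interleaved between the groups (log2 change -0.01 ± 0.12 SE, adjusted p = 0.962). Among regulators, Bhlhe40, a repressor in the circadian clock, had 250.3, 436 and 388 CPM in control and 195, 235 and 215 CPM in cadmium samples. The groups did not overlap, with an adjusted p just above the threshold (log2 change -0.73 ± 0.20 SE, adjusted p = 0.0531). With the replicate as a block its adjusted p was 0.0231.

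Some abundant peaks were low in replicate 2 of both groups, and the labels give the replicate number as the batch. At 11 of the 563 peaks (1.95%; 0.374% of all peaks) replicate 2 was under 0.5 times the mean of replicates 1 and 3 in both groups. They include Gm12896 and the short peaks of Cadps2, Gm41804 and Ola1, as well as Fasn, the fatty acid synthase, and the second peak of Thrsp. Cadps2, a factor of vesicle secretion, had 2041, 301 and 1518 CPM in control and 826, 437 and 2179.6 CPM in cadmium samples. Replicate 2 was the lowest sample in each group. On chromosome 2, 4 of these peaks, 2 of Ola1 and 2 with no gene, lay between 73048572 and 73263845. Their counts differed from one another by at most 4.62% in any sample, and the Ola1 peak at chr2:73093227-73093511 had 719, 92.0 and 481 CPM in control and 722, 112 and 487 CPM in cadmium samples. The 2 groups were nearly the same at each replicate number there. None of the 11 was called. The part of the batch in this pattern was not tested. Without both replicate 2 samples, 28 of the 563 peaks were lower and 2 higher.

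**Figure D5:**
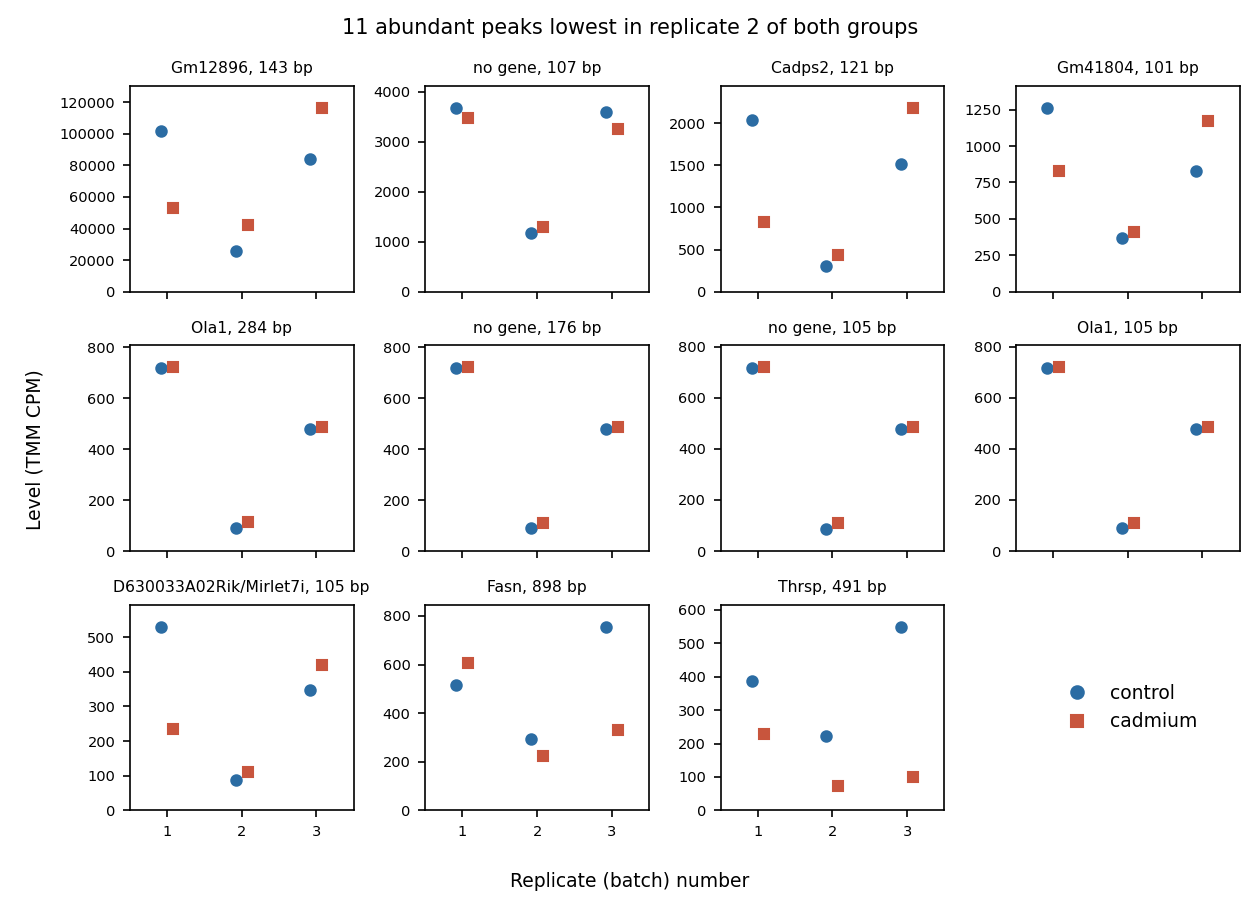
Level (TMM CPM, vertical axes from 0) by replicate number for the 11 abundant peaks with replicate 2 under 0.5 times the mean of replicates 1 and 3 in both groups, control as blue circles and cadmium as red squares. At the 4 peaks of 105 to 284 bp in the middle row the 2 groups nearly coincide at every replicate number.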

How the data were processed

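MeRIP-seq libraries of 3 control and 3 cadmium liver samples were used. Per the labels' protocols, RNA was immunoprecipitated with an anti-m6A antibody, the Ovation SoLo kit served for library preparation and an Illumina NovaSeq for sequencing. The submitters' processing notes name MACS2 2.1.1, STAR 2.7.1a, DESeq2 4.1.0, cutadapt 1.1.8, SAMtools 1.3.1 and build mm10, without role or setting. Nothing there says how duplicates and reads with several matches were treated, or whether peaks were called per sample or pooled. The deposited table holds raw counts per peak, with 1 peak set for all 6 samples. Its columns carry library numbers that the immunoprecipitated and input libraries share, and they were read as immunoprecipitated counts, which is an assumption. The group is not in doubt. The authors' log2 fold change, p-value, adjusted p-value and call in the authors' deposited table were used for comparison only. Column totals were 40174736 to 52338612 counts.

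The whole table was fitted with edgeR 4.0.16 in R 4.3.3 (TMM scaling, filterByExpr with minimum count 10 and total 15, quasi-likelihood F test, Benjamini-Hochberg adjustment over 37088 peaks, called below 0.05). The SE was taken as |log2 change| over the root of F. The code was tested on simulated data. Peaks named were the 12 with the highest control level, the 10 largest called falls and rises, up to 4 genes of each of 29 gene lists, the 5 genes with the most abundant peaks, the 5 most variable and 5 densest peaks and the neighbours of the threshold. Other called peaks, Xist, the Y-linked genes, the metallothioneins and the peaks low in replicate 2 were named after their values were seen. The peaks and lists were chosen with earlier results of these data known. The labels give replicate numbers as batches. Centred on their group, same-numbered samples correlated at 0.146, 0.214 and 0.174 across peaks, and other pairs at -0.173 to 0.0163, so a replicate block has a basis in the design and was an alternative, as were other scalings, DESeq2 1.42.0, no filter, samples left out and other choices of peaks. Coordinates are on mm10 as deposited. Exons, introns and the sequence under peaks were not analysed here, and the values of some genes are not reported here.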

Additional observations from a re-analysis of the deposited data

How the results depend on the processing

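None of the 40 calls changed direction under any alternative run on single peaks. All 40 were kept with the replicate block, without the count filter and without the 2 largest peaks, 39 with DESeq2 size factors and with DESeq2's own test, and 32 with plain column sums. The replicate block gave 3144 called peaks in all, and 50 lower and 7 higher among the abundant ones. DESeq2 gave 3683 in all, with 52 abundant peaks lower and 8 higher. A 2-fold minimum left 1161 called in all, with 12 abundant peaks lower and 1 higher. Leaving out 1 sample at a time gave 543 to 1976 called in all (1078 without control replicate 3, 543 without cadmium replicate 3), 14 to 38 lower and 0 to 7 higher. Leaving out both replicate 2 samples, an alternative chosen after seeing the data, gave 1543 in all, with 28 lower and 2 higher. Other choices of peaks moved the counts: a threshold of 100 gave 1390 peaks (95 lower, 18 higher) and 400 gave 212 (10 lower, 1 higher). The mean over all 6 samples gave 562 peaks (22 lower, 11 higher), and that over the cadmium samples 557 (9 lower, 21 higher). The cause of these shifts was not tested. The block and DESeq2 thus called further abundant peaks. Among the uncalled peaks named by rule, those called in an alternative were Mup3 (0.80), Bhlhe40 (-0.94) and Camk2b (-1.48) without control replicate 1, Scd1 (1.080) without cadmium replicate 2, and Bhlhe40 with DESeq2 (-0.74) and the block (-0.70). With 3 samples a group and a biological coefficient of variation of 19.4%, small differences may go uncalled. How duplicates were treated is not stated, so counts of reads cannot be taken as counts of independent molecules.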
